A study of Mus musculus with 4 samples.

Results

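The genes described here are Cxcl1, Cxcl2, Cxcl3 and Cxcl5, 4 chemokine genes whose proteins attract neutrophils, taken by symbol from the 32285 genes of the count matrices. They were counted by single-nucleus RNA sequencing of mouse back skin, where a barcode marks the nucleus and a unique molecular identifier (UMI) the RNA molecule. All mice were wild-type C57BL/6 at 8 weeks of age, with 1 library per mouse. The 2 unwounded libraries came from intact skin, and the 2 wounded libraries from skin taken 1 day after a full-thickness excision. The tissue was not sorted, so every cell type of skin and of the early wound could contribute nuclei, and only nuclear RNA was aimed at.

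CXC chemokines are small secreted proteins that bind receptors on leukocytes. Members with a glutamate-leucine-arginine motif before the cysteines, the ELR group, act on the receptor CXCR2 of neutrophils and draw these cells into injured or infected tissue. Their genes are switched on quickly by NF-kappaB after signals such as IL-1, TNF and microbial products, and their mRNAs are short-lived. In mouse skin Cxcl1 (also called KC), Cxcl2 (MIP-2), Cxcl3 and Cxcl5 (LIX) are known members of this group, and the ligand genes lie in a cluster on chromosome 5.

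All 4 genes are protein-coding and lie on the + strand of chromosome 5 in GRCm38. Cxcl5 spans 90759360 to 90761624, Cxcl3 90786103 to 90789600, Cxcl1 90891241 to 90893115 and Cxcl2 90903871 to 90905938, so each gene is between 1.88 and 3.50 kb long. The RefSeq promoter table (GRCm38.p6) matched 3 of the 4 genes, all but Cxcl5. The sequences below are shown because the 3 promoters hold the same pair of motifs in the same order. Each is the 140 bases before the earlier of the gene start given above and the RefSeq start, on the + strand, 5′ to 3′. Capitals mark GGGAATTTCC, a sequence of the kind NF-kappaB binds, and ATAAAAG, a sequence of the TATA box kind.
Cxcl1, chr5:90891101-90891240: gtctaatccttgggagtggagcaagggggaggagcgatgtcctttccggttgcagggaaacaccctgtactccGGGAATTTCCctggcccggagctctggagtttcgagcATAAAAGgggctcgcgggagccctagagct
Cxcl2, chr5:90903731-90903870: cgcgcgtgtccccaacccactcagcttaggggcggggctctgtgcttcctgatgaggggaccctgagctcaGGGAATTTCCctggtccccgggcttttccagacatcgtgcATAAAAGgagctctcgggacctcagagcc
Cxcl3, chr5:90785961-90786100: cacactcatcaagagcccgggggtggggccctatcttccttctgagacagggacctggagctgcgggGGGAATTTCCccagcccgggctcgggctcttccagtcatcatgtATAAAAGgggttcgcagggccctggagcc

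Counted from the RefSeq start, the first base of GGGAATTTCC lay at -71 in Cxcl1, -97 in Cxcl2 and -73 in Cxcl3. The RefSeq start of Cxcl2, 90903899, lies inside the gene span and past the end of the printed window, which adds to its distances. ATAAAAG began at -34, -57 and -29 in the same order, leaving a gap of 27, 30 and 34 bases between the motifs. GGGAATTTCC was picked as the stretch shared by these 3 promoters that fits a looser kappaB consensus. Its presence in all 3 was therefore fixed by that choice. Searched on both strands, it occurred in 29 of 32851 promoters of the table (0.0883%), these 3 included, and ATAAAAG in 5.42%. The looser kappaB consensus, which includes GGGAATTTCC, occurred in 8.46%. Outside the chemokines described here, the pathway genes listed further on held GGGAATTTCC only in Nfkbia, the gene of the NF-kappaB inhibitor IkappaB-alpha, among the 26 that had a promoter in the table. A match in such a window is a description of the sequence and no evidence of binding. Cxcl1 carries both motifs as Cxcl2 and Cxcl3 do, and its counts, given next, were far lower than theirs.

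The libraries of the groups differed in more than the wound. The unwounded libraries held 6575 and 9001 nuclei with 8275090 and 6475744 UMIs, and the wounded libraries 2297 and 3706 nuclei with 1189262 and 1350822 UMIs. The median was 907 and 469 UMIs per nucleus in unwounded and 360 and 303 in wounded skin. Malat1, a nuclear-retained RNA, made up 9.39% and 8.26% of unwounded but 0.120% and 0.294% of wounded UMIs. The 1466 olfactory and vomeronasal receptor genes, which skin is not known to use, rose from 94.5 and 132 to 7044 and 6525 CPM in sum, CPM being counts scaled to the library total. For this reason each wounded level is also given as a ratio, observed over length-expected, that is, the gene's UMIs over those its length would hold at the density of the receptor genes. Between 3 and 27 barcode sequences of kept nuclei were shared by a pair of libraries.

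In intact skin the 4 chemokine genes were almost undetected. Across both unwounded libraries Cxcl1 had 4 UMIs, Cxcl2 had 3, Cxcl5 had 1 and Cxcl3 had none. A count of 0 allows a level of up to 0.363 and 0.463 CPM in unwounded replicates 1 and 2. In wounded skin Cxcl2, Cxcl3 and Cxcl5 were detected in both libraries at levels between 16.8 and 53.0 CPM, and Cxcl1 stayed below 3 CPM.

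Cxcl2 had 2 and 1 UMIs in unwounded replicates 1 and 2 and 37 and 46 UMIs in wounded replicates 1 and 2. These counts are 0.242 and 0.154 CPM against 31.1 and 34.1 CPM. The wounded levels had overlapping counting intervals (95% exact Poisson, 21.9 to 42.9 and 24.9 to 45.4 CPM), and both were far above the unwounded ones. The means were 0.198 ± 0.0617 and 32.6 ± 2.08 CPM (SD, n = 2 mice per group).

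Cxcl3 had no UMI in either unwounded library and 63 and 46 UMIs in the wounded ones, or 53.0 and 34.1 CPM. The wounded mean of 43.5 ± 13.4 CPM (SD, n = 2) was at least 214-fold higher than the limit of 3 counts over the unwounded group. Its counting intervals in the wounded libraries, 40.7 to 67.8 and 24.9 to 45.4 CPM, overlapped.

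Cxcl5 had 0 and 1 UMIs in the unwounded libraries and 20 and 70 in the wounded ones, or 16.8 and 51.8 CPM. Here the wounded libraries differed beyond counting error, with intervals of 10.3 to 26.0 and 40.4 to 65.5 CPM. The wounded mean was 34.3 ± 24.8 CPM (SD, n = 2), so the level of Cxcl5 is the least certain of the 3, although its groups did not overlap.

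Cxcl1 had 2 and 2 UMIs in the unwounded and 2 and 4 UMIs in the wounded libraries. Given the depths this is 0.242 and 0.309 against 1.68 and 2.96 CPM. The wounded intervals, 0.204 to 6.07 and 0.807 to 7.58 CPM, reach down to the unwounded levels, whose upper bounds are 0.873 and 1.12 CPM. A difference in Cxcl1 was not detectable at this depth.

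**Figure D1:**
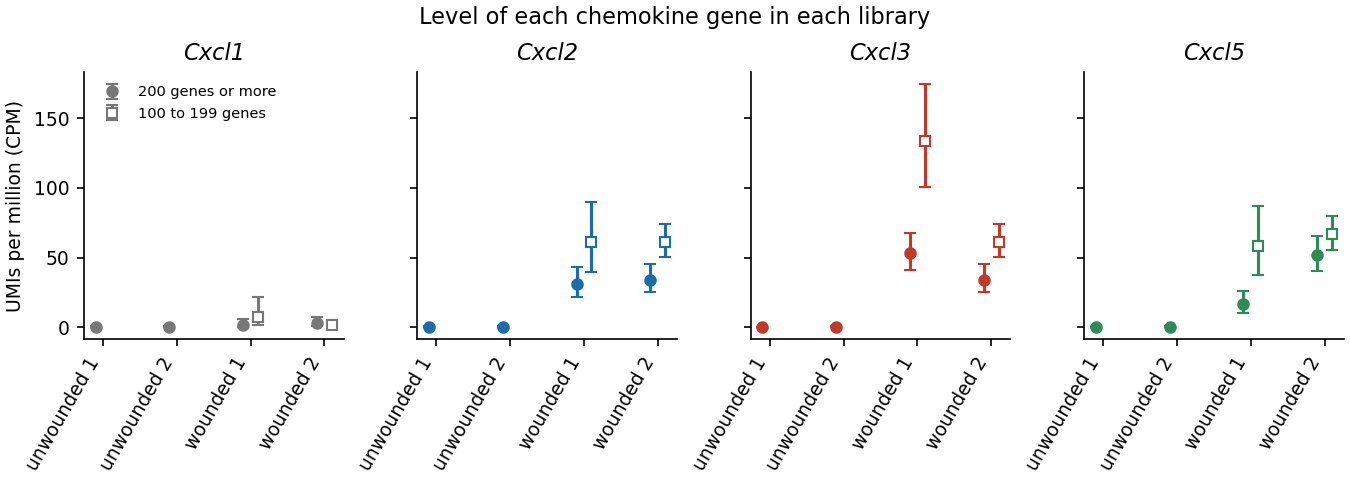
Level of each chemokine gene (CPM) in each library, with 95% exact Poisson intervals that cover counting error only. Filled circles are nuclei with 200 genes or more, and open squares are shallow wounded barcodes with at least 100 but fewer than 200 genes. Cxcl2, Cxcl3 and Cxcl5 sit between 16.8 and 53.0 CPM in the filled wounded points and near 0 in unwounded skin, while Cxcl1 stays low throughout.

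In edgeR's quasi-likelihood test on summed counts, with Benjamini-Hochberg adjustment over 20930 genes, 3 of the 4 chemokine genes were tested and all 3 rose. These 3 passed the filter on low counts through the wounded libraries, with at least 20 UMIs there against at most 2 in each unwounded library. A gene admitted in this way can hardly be called as fallen. The background is high, since 46.9% of all genes tested rose at the same threshold of 0.05 and 37.3% fell, so the count of 3 in itself is no result about these genes. The wounded CPM lay above the unwounded CPM with no overlap for these 3 genes, and for 59.8% of all genes tested. With DESeq2, which tested 29366 genes without the filter on low counts, 11222 genes rose and 5816 fell. On the same 29366 genes edgeR called 13693 as risen and 8511 as fallen. With length-expected counts subtracted 5082 rose and 7458 fell, against 9819 and 7810 as reported. The log2 fold change was 6.37 ± 0.49 (SE) for Cxcl2, with adjusted p = 7.56e-07. It was 9.91 ± 0.72 for Cxcl3, with adjusted p = 1.19e-06, and 7.75 ± 0.87 for Cxcl5, with adjusted p = 1.19e-05. The TMM factors that scale the library totals in edgeR were 0.782 and 0.731 for unwounded and 1.33 and 1.32 for wounded libraries. They place the fitted changes below the log2 ratios of CPM. The median over all genes tested was 0.39, and it was 0.63 with RLE scaling and -0.85 with length-expected counts subtracted. Over the 29366 genes without the filter it was 1.60 in edgeR and 1.94 in DESeq2. In order of fold change Cxcl3 stood 23rd, Cxcl5 810th and Cxcl2 2523rd of 20930 genes. Cxcl3 rests on an unwounded count of 0 and Cxcl5 on 1 unwounded UMI, so these fitted values depend on the prior count. Without unwounded replicate 1 the fitted value of Cxcl5 was 6.68, without unwounded replicate 2 it was 9.43, without wounded replicate 1 it was 8.57 and without wounded replicate 2 it was 6.94. Sums over whole libraries cannot tell more cells that use a gene from more RNA per cell.

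Cxcl1 did not pass the filter on low counts. Without that filter its log2 fold change was 2.14 ± 1.11 (SE), with adjusted p = 0.0697 in edgeR's quasi-likelihood test, while 46.6% of genes rose. DESeq2 gave 2.46, with adjusted p = 0.244. With nuclei of 100 genes or more, where Cxcl1 had 5 and 7 wounded UMIs, it was tested and rose by 2.43 ± 0.72, with adjusted p = 0.00438 in edgeR. Its observed over length-expected ratio there was 3.26 and 2.53. Over all deposited barcodes the value was 2.26 ± 0.59, with adjusted p = 0.00376.

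Levels were compared between the genes as CPM per kb of gene span. In wounded replicate 1 these were 15.1 for Cxcl3, 15.0 for Cxcl2, 7.42 for Cxcl5 and 0.897 for Cxcl1. In wounded replicate 2 they were 22.9 for Cxcl5, 16.5 for Cxcl2, 9.74 for Cxcl3 and 1.58 for Cxcl1. Cxcl1 was the lowest of the 4 in both, and the order of the other 3 differed between the mice. These are 3′ libraries, in which UMIs need not scale with gene span, so that order depends in part on the division. In wounded replicate 2 Cxcl2 and Cxcl3 had the same count, 46 UMIs.

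In the wounded libraries Cxcl2, Cxcl3 and Cxcl5 stood above the level that gene length and the receptor genes would give. In wounded replicates 1 and 2 the ratio of observed to length-expected UMIs of Cxcl2 was 27.3 and 32.3, that of Cxcl3 was 27.5 and 19.1, and that of Cxcl5 was 13.5 and 44.9. For Cxcl1 it was 1.63 and 3.10. As a yardstick, 1956 protein-coding genes of 1 to 5 kb that were at most 1 CPM in unwounded skin had a 99th percentile of 12.5 and 13. Cxcl2, Cxcl3 and Cxcl5 lay above it in both libraries, and 16.1% and 7.21% of those short genes reached the ratio of Cxcl1. With length-expected counts subtracted from the wounded libraries the log2 fold changes were 7.61, 10.96 and 8.92 for Cxcl2, Cxcl3 and Cxcl5. The subtraction used the same receptor density as the ratios and left the unwounded libraries unchanged. These fold changes therefore follow in part from the ratios and are no separate result.

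The genes between and around the chemokines were read the same way. From Cxcl5 to Cxcl2 the cluster also holds Ppbp and Pf4, platelet chemokine genes, and Cxcl15, a chemokine gene of lung epithelium. Ppbp had 0 and 1 wounded UMIs, Cxcl15 6 and 4, and Pf4 3 and 1. Their observed over length-expected ratios were 0 and 0.939, 1.07 and 0.681, and 4.83 and 1.53. The long non-coding Gm43086, next to Cxcl1, had 2 and 0 wounded UMIs. Beyond the cluster, Mthfd2l had 100 and 96 wounded UMIs with ratios of 1.69 and 1.54, and the EGF family ligand genes Epgn, Ereg and Areg had ratios between 0.562 and 2.80. None of the 14 other genes within 250 kb reached the lowest ratio of Cxcl2, Cxcl3 or Cxcl5 in either wounded library.

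**Figure D2:**
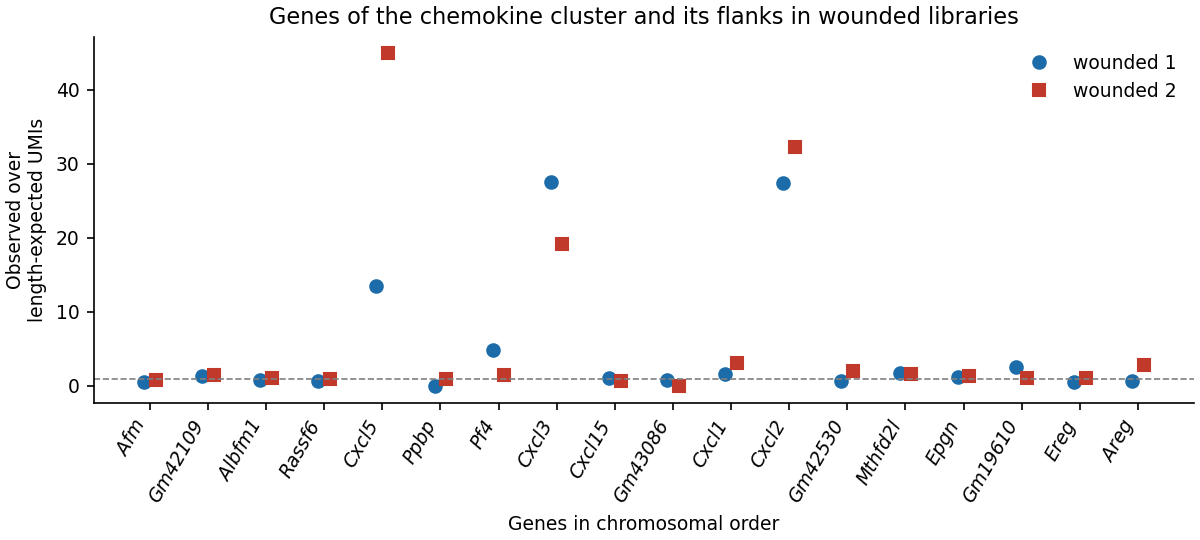
Observed over length-expected UMIs (ratio, dashed line at 1) for the genes of the chemokine cluster and its flanks in chromosomal order, in both wounded libraries. Cxcl5, Cxcl3 and Cxcl2 stand at 13.5 or above, and the genes between them, Cxcl1 included, stay below 5.

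Some family members are alike enough in sequence for reads to be confused. The longest coding transcripts of Cxcl2 and Cxcl3 (1859 and 1016 bases, GENCODE vM21) aligned over 317 positions at 91.8% identity and shared an identical stretch of 110 bases. That stretch ended 1687 and 850 bases before the 3′ ends, the end that 3′ libraries capture. Cxcl1 aligned with Cxcl2 at 79.0% and with Cxcl3 at 77.7%, and its longest identical stretch with either was 23 bases. Cxcl5 shared at most 12 identical bases in a row with any of the others. Reads from unspliced nuclear RNA could also fall elsewhere in the genes, which was not examined.

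In CPM, Cxcl2, Cxcl3 and Cxcl5 were higher in shallow wounded barcodes than in deep ones in both libraries. Shallow barcodes here have at least 100 but fewer than 200 genes and fall under the gene minimum used above. Wounded replicates 1 and 2 held 2236 and 11745 of them, with medians of 179 and 147 UMIs. In these Cxcl2 had 25 and 111 UMIs, or 60.8 and 61.5 CPM. Cxcl3 had 55 and 111 UMIs, or 134 and 61.5 CPM, with intervals of 101 to 174 and 50.6 to 74.0 CPM that did not overlap, unlike in the deeper nuclei. Cxcl5 had 24 and 121 UMIs, or 58.4 and 67.0 CPM, and its counting intervals in the 2 libraries, 37.4 to 86.9 and 55.6 to 80.1 CPM, overlapped here. Cxcl1 had 3 UMIs in each, or 7.30 and 1.66 CPM, against 1.68 and 2.96 CPM in the deeper nuclei. The shallow and deep intervals overlapped for Cxcl2 in wounded replicate 1 and for Cxcl5 in wounded replicate 2. CPM is a share of the RNA, and per barcode the chemokines were not more frequent in shallow barcodes. A UMI of the 4 genes was in 84 of 2236 and 325 of 11745 shallow barcodes. Among the deeper nuclei it was in 107 of 2297 and 153 of 3706. The ratios to length-expected UMIs were 73.3 and 68.1 (Cxcl2), 95.4 and 40.2 (Cxcl3), and 64.3 and 67.7 (Cxcl5).

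The ratio of the shallow to the deep level can be set beside that of other genes of the same library. In wounded replicate 1 it was 1.96 for Cxcl2, 2.53 for Cxcl3 and 3.47 for Cxcl5, where the median of 10489 genes was 0.864 and 4.12%, 1.31% and 0.162% of genes were higher. In wounded replicate 2 it was 1.81 for Cxcl2, 1.81 for Cxcl3 and 1.29 for Cxcl5, where the median was 0.958 and 1.96%, 1.96% and 13.2% of genes were higher. Cxcl5 thus stood near the top of the first library only.

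Against the shallow unwounded barcodes no chemokine gene passed the test. Those numbered 1 and 69, with 695 and 26406 UMIs, held no UMI of the 4 genes and allowed up to 111 CPM over the group. The log2 fold changes were 8.10 ± 4.41 (SE) for Cxcl2, 8.60 ± 4.20 for Cxcl3 and 8.17 ± 4.38 for Cxcl5, with adjusted p = 0.155, 0.151 and 0.155 in edgeR's quasi-likelihood test. Among the 4449 genes tested there, 2.7% rose. With RLE scaling Cxcl3 had adjusted p = 0.0421.

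When barcodes were ordered by their UMIs, the summed level of the 4 genes was lower in deep than in shallow bins, apart from the thin lowest bin of wounded replicate 1. That bin, of up to 150 UMIs, was at 149 CPM on 3 UMIs of the 4 genes (30.8 to 437 CPM). In wounded replicate 1 the level was 279 CPM (75 UMIs of the 4 genes) in barcodes above 150 and up to 200 UMIs. In the next bins, up to 300, 500 and 1000 UMIs, it was 210, 122 and 117 CPM, and above 1000 UMIs it was 27.3 CPM (10 UMIs). In wounded replicate 2 it was 215 CPM (219 UMIs) in barcodes of up to 150 UMIs. In the next bins, up to 200, 300, 500 and 1000 UMIs, it was 177, 153, 140 and 99.7 CPM, and above 1000 UMIs it was 37.7 CPM (6 UMIs). The deepest barcodes had the lowest CPM of these transcripts in both mice. In wounded replicate 2 the interval of that bin, 13.8 to 81.9 CPM, overlapped that of the bin before it, 70.9 to 136 CPM. CPM is a share of the RNA and not a number per barcode. The 10 and 6 UMIs above 1000 UMIs lay in 218 and 116 barcodes. The 75 UMIs of wounded replicate 1 lay in 1554 barcodes, and the 219 UMIs of wounded replicate 2 in 8206.

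**Figure D3:**
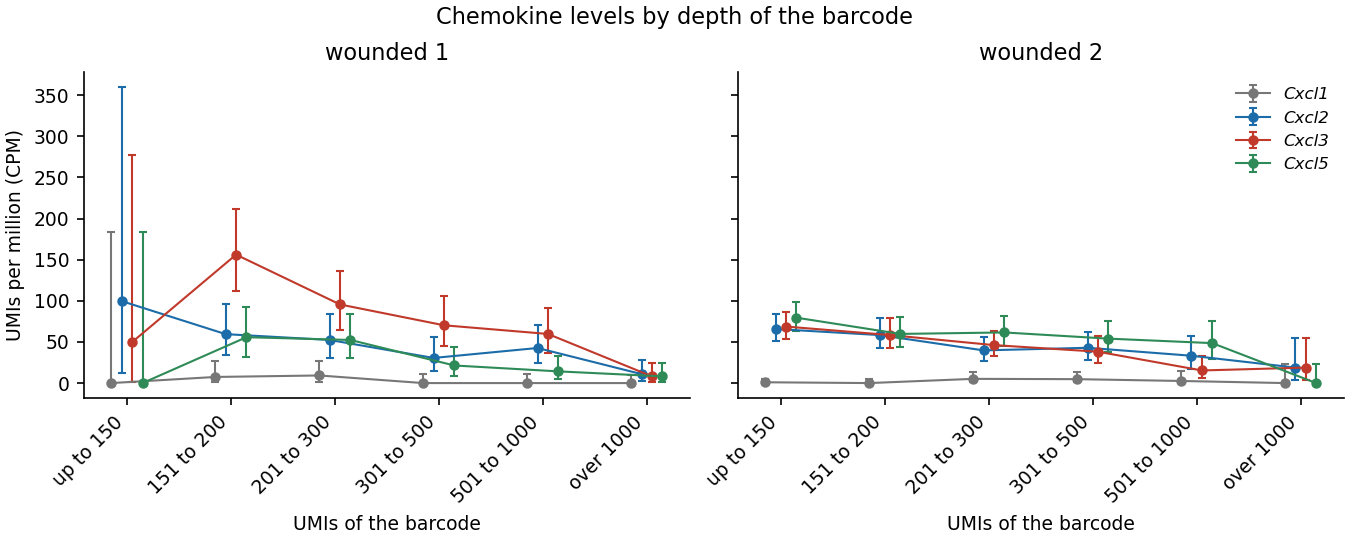
Levels of the 4 genes (CPM) against the UMI total of the barcode, in bins, for wounded replicates 1 and 2, with 95% exact Poisson intervals that cover counting error only. Cxcl2, Cxcl3 and Cxcl5 are low in barcodes over 1000 UMIs, at most 18.8 CPM, and the first bin of wounded replicate 1 rests on 3 UMIs.

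A second split asked whether the transcripts sat in barcodes that carried Malat1. Among wounded nuclei of 200 genes or more, those with a Malat1 UMI numbered 579 and 1455, and those without 1718 and 2251. Cxcl5 was at 34.9 and 88.6 CPM in nuclei with Malat1 and at 11.1 and 28.0 CPM in those without. In wounded replicate 2 the Cxcl5 intervals, 65.1 to 118 and 17.8 to 42.1 CPM, did not overlap. Cxcl2 was at 48.9 and 47.1 CPM with Malat1 and 25.5 and 25.6 CPM without. Cxcl3 was at 76.8 and 32.0 CPM with Malat1 and 45.4 and 35.4 CPM without, so it was higher with Malat1 in 1 of 2 libraries. Apart from Cxcl5 in wounded replicate 2, the counting intervals with and without Malat1 overlapped for each of these genes in each library. Those of the 4 genes summed did not overlap in either library. In wounded replicate 1 the sum was at 161 CPM (118 to 214) with Malat1 and 84.2 CPM (66.3 to 105) without. In wounded replicate 2 it was at 173 CPM (140 to 213) with Malat1 and 90.2 CPM (70.9 to 113) without. With nuclei that carry Malat1 only, an alternative added after the data were seen, all 3 genes still rose, by 6.98, 9.98 and 8.68 for Cxcl2, Cxcl3 and Cxcl5.

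Most chemokine barcodes held 1 UMI. Over all deposited barcodes Cxcl2 was found in 61 of 4635 barcodes of wounded replicate 1 and 170 of 18026 of wounded replicate 2, and Cxcl3 in 99 and 174. Cxcl5 was found in 45 and 219, and Cxcl1 in 5 and 9. More than 1 UMI was held by 16 of the 99 barcodes with Cxcl3 and 3 of the 61 with Cxcl2 in wounded replicate 1, and by 6 of 174 and 8 of 170 in wounded replicate 2.

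Cxcl3 was in a larger share of the barcodes with Cxcl2 than of those without in both wounded libraries. In wounded replicate 1, 12 barcodes held both, 19.7% of the barcodes with Cxcl2 and 12.1% of those with Cxcl3, and Cxcl3 was in 1.90% of the barcodes without Cxcl2. In wounded replicate 2, 7 barcodes held both, or 4.12% of those with Cxcl2 and 4.02% of those with Cxcl3, against Cxcl3 in 0.935% of the barcodes without Cxcl2. Median depth was 278 and 181 UMIs in barcodes with Cxcl2 and 235 and 158 in those without. Cxcl5 met Cxcl3 in 0 and 3 barcodes and Cxcl2 in 1 and 4. Cxcl1 met none of the other 3 in either library. In nuclei of 200 genes or more the pair of Cxcl2 and Cxcl3 was found together in 4 and 1, or 11.1% and 2.38% of those with Cxcl2. These are counts of barcodes of 1 library each and carry no test.

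In 12 barcodes the 4 genes together reached 3 UMIs or more, 8 of them in wounded replicate 1 and 4 in wounded replicate 2. All 12 held Cxcl3, and none held a Cxcl5 or Cxcl1 UMI. The richest, from wounded replicate 2, had 7 UMIs of Cxcl2 and 1 of Cxcl3 among 127 UMIs and 100 genes. It also held Trem1, a myeloid receptor gene, Spp1, the gene of osteopontin, Dcn, a fibroblast proteoglycan gene, and Atp2a1, a muscle calcium pump gene. Of the 12, a class by marker genes was reached by 1, a macrophage and monocyte-like barcode with Adgre1, Lyz2, 1 Cxcl2 and 2 Cxcl3 UMIs. In 4 of them no marker of any list was found, and 1 was removed as a doublet from the counts of nuclei above.

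Marker genes placed few of the wounded barcodes. A barcode was put in a class, and called for example neutrophil-like, if it held at least 2 markers of that class and more than of any other, with none of the 4 chemokines as marker. Of the 2297 and 3706 wounded nuclei, 297 and 370 reached a class. Neutrophil-like barcodes numbered 21 and 29, and 0 and 0 in the unwounded libraries, in which the neutrophil markers Retnlg, Trem1, Ly6g and Stfa2l1 had no UMI. Each wounded library had all 15 neutrophil markers detected, with a summed level of 300 and 331 CPM, against 91.4 and 90.0 CPM in the unwounded ones. Observed over length-expected for that list was 2.15 and 2.56. It was 1.63 and 1.62 for macrophage and monocyte markers, 1.52 and 1.58 for endothelial, 4.75 and 6.11 for fibroblast and 4.41 and 9.88 for keratinocyte markers. The part of each cell type in the chemokine levels was not tested.

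The chemokine UMIs spread over several classes. In wounded barcodes of 100 genes or more, fibroblast-like barcodes (149 and 280) held 12 and 22 UMIs of the 4 genes, the highest count of any class, or 180 and 288 CPM. Among these, Cxcl2 had 4 and 7, Cxcl3 3 and 6, Cxcl5 5 and 7, and Cxcl1 0 and 2. Macrophage and monocyte-like barcodes (78 and 90) held 5 and 7 UMIs, or 67.1 and 206 CPM, keratinocyte-like barcodes 3 and 8, or 160 and 142 CPM, and endothelial-like barcodes 5 and 4, or 90.2 and 147 CPM. Neutrophil-like barcodes (27 and 60) held 4 and 2, or 170 and 81.5 CPM. Sebocyte-like barcodes (30 and 45) held 3 and 0. Barcodes of no class held 197 and 469 UMIs, or 150 and 161 CPM, which is most of the UMIs of these genes.

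The counting intervals of the named classes overlapped with each other and, with 1 exception, with that of the barcodes of no class. In wounded replicate 2 fibroblast-like barcodes, at 288 CPM (95% exact Poisson interval 180 to 436), lay above barcodes of no class, at 161 CPM (147 to 177). In wounded replicate 1 they were at 180 CPM (93.0 to 314), against 150 CPM (129 to 172), and overlapped. The median UMI count was 226 in the fibroblast-like barcodes and 162 in those of no class of wounded replicate 2. No chemokine gene passed the filter on low counts in any class, so neither the test between wounded and unwounded barcodes of 1 class nor the test between classes of wounded skin could be made. In unwounded skin all 8 UMIs of the 4 genes lay in fibroblast-like barcodes. That was also the class of most barcodes there, 5217 of 6576 and 7073 of 9070, so these UMIs do not set it apart.

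**Figure D4:**
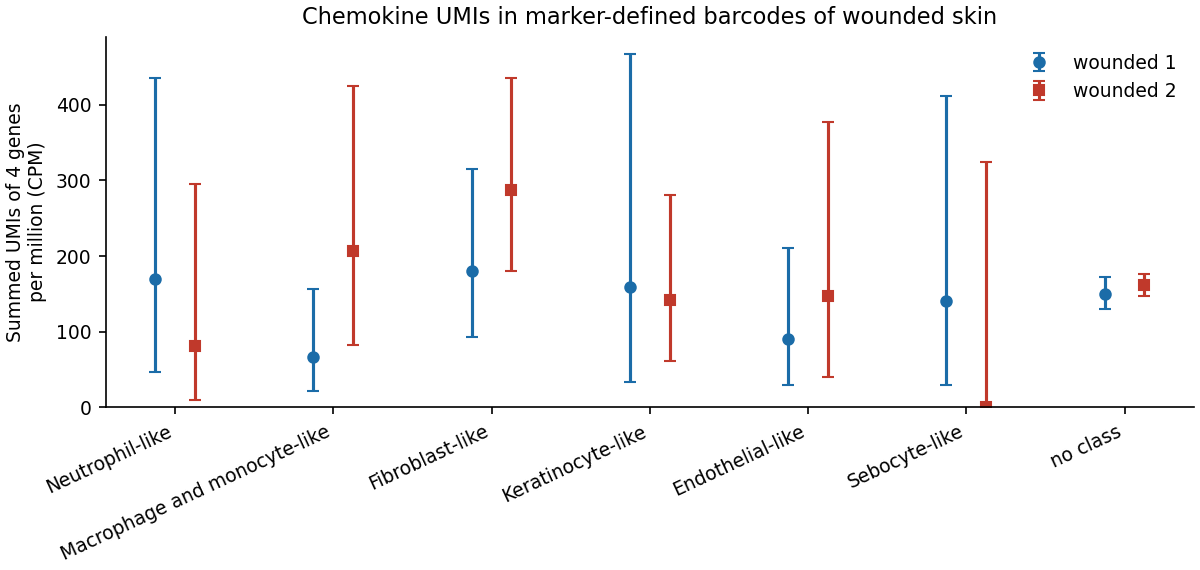
Summed level of the 4 genes (CPM) in marker-defined barcodes of 100 genes or more in wounded replicates 1 and 2, with 95% exact Poisson intervals that cover counting error only. Classes with at least 20 barcodes in both libraries are shown, and all but the group of no class rest on 22 UMIs or fewer.

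Genes with a like pattern were sought over 22 sums of class and library, of which 8 were wounded and which held 49 UMIs of the 4 genes. Pearson's r with the summed chemokines, on log2(CPM + 10), was 0.98 for P4ha3, Pak7 and Agbl2 and 0.97 for Tnc and C9. The points share libraries and differ chiefly by group, and Tnc, for example, was at 3.02 and 3.09 CPM in unwounded and 154 and 161 CPM in wounded skin. These 5 genes are 34.2 to 307 kb long, far longer than the chemokines.

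The receptors and relatives of these ligands were sparsely measured. Of 6 genes, Ppbp, Pf4, Cxcl15, Cxcr1, Cxcr2 and Ackr1, only Cxcr2 and Ackr1 passed the filter on low counts. Cxcr2, the neutrophil receptor of all 4 chemokines, had 0 and 1 UMIs in unwounded and 12 and 10 in wounded libraries, or 8.75 ± 1.90 CPM (SD, n = 2) in the latter. It rose by 5.75 ± 0.79 (SE, log2), with adjusted p = 5.18e-05 in edgeR's quasi-likelihood test. Cxcr2 passed the filter through the wounded libraries, so it could hardly be called as fallen. Its observed over length-expected ratio was 2.53 and 2.00. That lay under the 95th percentile of 2.98 and 2.94 for genes of 5 kb or more at up to 1 CPM in unwounded skin. With length-expected counts subtracted, with nuclei that carry Malat1 only or with 400 genes per nucleus, Cxcr2 no longer passed the filter. Ackr1, a decoy receptor of venular endothelium that binds many chemokines without signalling, had 213 and 137 UMIs in unwounded and 0 and 1 in wounded libraries. It fell by 6.53 on the log2 scale, with SE 0.57 and adjusted p = 2.07e-06, and it fell with RLE scaling and DESeq2 too. Cxcr1 had no unwounded and 3 and 4 wounded UMIs.

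Among 13 other CXC ligand and receptor genes, 5 were tested, of which 2 rose and 2 fell, near the shares of all genes tested (46.9% and 37.3%). Cxcr5, a receptor of B cells, rose by 7.36 ± 0.30, with adjusted p = 2.20e-08 in edgeR. Like Cxcr2, it passed the filter through the wounded libraries. It is 50.1 kb long, with observed over length-expected ratios of 4.09 and 5.16. For nearly silent genes of 5 kb or more the 95th percentile was 2.98 and 2.94, and the 99th was 4.96 and 5.42. Cxcr5 lay between these percentiles in both libraries. Cxcl17, a mucosal chemokine, rose by 1.87 ± 0.39, with adjusted p = 0.00106 and ratios of 2.50 and 2.49. Cxcl12, the stromal ligand of CXCR4, was at 16.2 and 20.1 CPM in unwounded and 10.9 and 16.3 CPM in wounded libraries. Ackr3, its scavenger receptor, was at 30.9 and 22.5 CPM in unwounded and 16.8 and 26.7 CPM in wounded libraries. In edgeR Cxcl12 fell by 1.18 on the log2 scale with adjusted p = 0.00426, and Ackr3 by 1.07 with adjusted p = 0.00359. Both calls were lost in DESeq2, at -1.03 and -0.91 (adjusted p = 0.0902 and 0.0785), and with length-expected counts subtracted, at -0.86 and -0.30 (adjusted p = 0.129 and 0.483). They were also lost in nuclei that carry Malat1, where edgeR gave Cxcl12 -0.07 and Ackr3 -0.48 (adjusted p = 0.865 and 0.241), and over all deposited barcodes Ackr3 was at -0.31 (adjusted p = 0.210). Cxcl9 and Cxcl10, ligands of CXCR3 that attract T cells, had 5 and 6 and 1 and 2 wounded UMIs and were not tested.

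Among 14 genes that induce these chemokines or damp NF-kappaB and mRNA stability, 11 were tested, of which 3 rose and 4 fell, where 46.9% of all genes tested rose and 37.3% fell, so these counts are no result about the list. Il1b, an inducer of the chemokines, was at 5.05 and 19.99 CPM in wounded and at 0.725 and 0.618 CPM in unwounded libraries. It rose by 3.42 ± 0.66 (adjusted p = 0.000631, edgeR), with observed over length-expected ratios of 1.40 and 5.97. Il6 rose by 4.22 ± 0.70 (adjusted p = 0.000199, edgeR), with ratios of 2.67 and 2.54. The 95th percentile for nearly silent genes of 5 kb or more was 2.98 and 2.94. Il6 in both wounded libraries and Il1b in wounded replicate 1 lay under it. Csf3, the gene of the neutrophil growth factor G-CSF, had no unwounded and 5 and 13 wounded UMIs, with ratios of 3.23 and 7.98. It rose by 7.31 ± 1.09 (adjusted p = 0.000146, edgeR), and it did not pass the filter with length-expected counts subtracted. Nearly silent genes of 1 to 5 kb had a 95th percentile of 3.87 and 3.89, and Csf3 lay under it in wounded replicate 1 only. Il1b, Il6 and Csf3 passed the filter through the wounded libraries, so they could hardly be called as fallen. Neither Il6 nor Csf3 passed the filter with nuclei that carry Malat1 or with 400 genes per nucleus. Il17ra, a receptor gene whose signal raises these chemokines, was at 33.5 and 26.9 CPM in unwounded and 24.4 and 22.2 CPM in wounded libraries. After TMM scaling it fell by 1.16 on the log2 scale in edgeR, with SE 0.22 and adjusted p = 0.000585. The median log2 fold change of the 11 was -0.07, against 0.39 over all genes tested. Without a call in either direction, Nfkbia had 38 and 82 wounded UMIs, a log2 fold change of -0.07 ± 0.27 and an observed over length-expected ratio of 17.9 and 36.8. Nfkbia was at 26.1 and 30.7 CPM in unwounded and 32.0 and 60.7 CPM in wounded libraries. Its value was 0.17 with RLE scaling and 0.09 with DESeq2, and with length-expected counts subtracted it rose by 1.17, with adjusted p = 0.0211. Among nuclei with a Malat1 UMI Nfkbia rose as well, by 0.62 with adjusted p = 0.0457. In edgeR it was not called with 400 genes per nucleus, at -0.52 (adjusted p = 0.109), or without doublet removal, at -0.08 (adjusted p = 0.777). Over all deposited barcodes it was not called either, at 0.58 (adjusted p = 0.0574, edgeR).

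**Figure D5:**
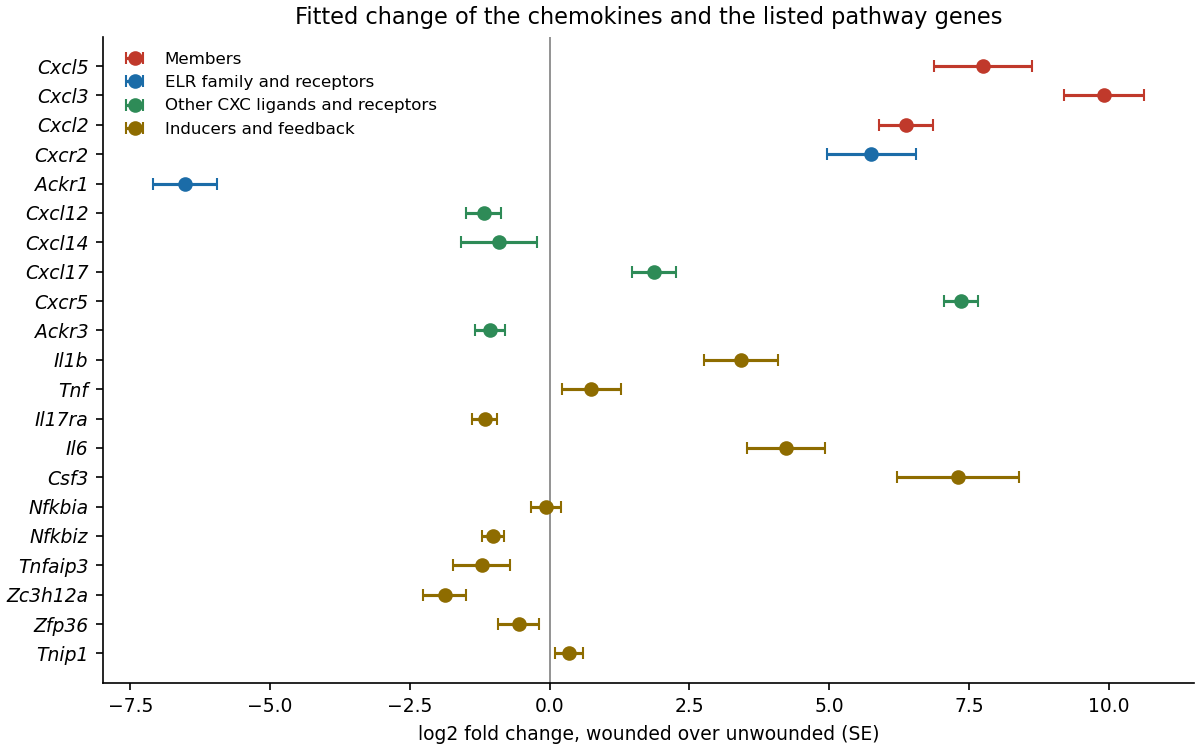
Fitted log2 fold change, wounded over unwounded, with its SE, of the 3 chemokine genes tested and of the listed pathway genes that passed the filter on low counts. Cxcl3, Cxcl5 and Cxcl2 stand at 9.91, 7.75 and 6.37, and Ackr1 at -6.53.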

How the data were processed

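Back skin nuclei gave 4 libraries, made with 10x Genomics 3' v3.1 chemistry according to the labels. What the authors deposited are raw UMI counts, 1 value for every gene and barcode. Cell Ranger 5.0.1 and GRCm38 are named in the submitters' processing notes. Counting of intronic reads is not given in the sources used here. Members and gene lists were chosen with earlier results of these data known.

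The filter on nuclei asked for 200 genes or more and no more than 5% mitochondrial UMIs. Scrublet (scanpy 1.11.5) called 0, 0, 11 (0.461%) and 0 doublets by itself, under a working minimum of 0.5%, so the top scores, 0.8% for each 1000 barcodes, were taken out (388, 769, 88 and 624). UMIs were summed per library and tested with edgeR 4.0.16 (R 4.3.3): filterByExpr, TMM, glmQLFit, glmQLFTest and Benjamini-Hochberg adjustment at 0.05, after a check on simulated data. Nothing says more of the replicates than 1 mouse per library. The chi-square per gene was 11.4 between unwounded and 1.93 between wounded libraries, so none was a copy. A count of 0 was read as up to 3 counts, or 0.363, 0.463, 2.52 and 2.22 CPM. Intervals are 95% exact Poisson and, like these limits, cover counting error only. Gene spans came from GENCODE vM21, which matched 32235 of 32285 genes. Cxcl11 was not analysed here. Named genes were the 4 chemokines, up to 4 of smallest p per list or genes of the cluster, and genes of like pattern; Malat1 and further list members (Nfkbia, Cxcr1, Cxcl9, Cxcl10) were chosen after their values were seen. Alternatives were RLE scaling, DESeq2 1.42.0, no filter, 1 library left out, a replicate block, 100 or 400 genes per nucleus, no doublet removal, subtraction of length-expected counts and thinning, with nuclei that carry Malat1 and all deposited barcodes added after the data were seen.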

Additional observations from a re-analysis of the deposited data

Results flagged for a closer look

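Wounded replicate 2 also held 1943 deposited barcodes of fewer than 100 genes, which enter none of the comparisons by gene number. In these barcodes Cxcl2 had 12 UMIs, Cxcl3 had 15 UMIs and Cxcl5 had 21 UMIs, each above the 3 counts that a count of 0 allows, while Cxcl1 had none. The levels were 55.6 CPM for Cxcl2, 69.5 CPM for Cxcl3 and 97.4 CPM for Cxcl5. Their 95% exact Poisson intervals were 28.7 to 97.2, 38.9 to 115 and 60.3 to 149 CPM, and observed over length-expected was 70.0, 51.7 and 112. The unwounded libraries held no barcode of this kind and wounded replicate 1 held 12, with no UMI of the 4 genes among 2124 UMIs, so the level has no control to be set against.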

How the results depend on the processing

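Cxcl2, Cxcl3 and Cxcl5 rose under each of the 15 alternatives, with adjusted p of at most 0.000616 (edgeR or DESeq2). Cxcl2 ranged from 5.79 (400 genes per nucleus) to 8.18 (thinned libraries) and Cxcl3 from 8.61 (thinned) to 10.96 (length-expected counts subtracted). With 1 library left out the ranges were 6.13 to 6.64 for Cxcl2, 9.45 to 10.60 for Cxcl3 and 6.68 to 9.43 for Cxcl5, and 7628 to 9335 genes rose and 6612 to 7549 fell. The number of genes that rose moved from 9819 to 5082 with length-expected counts subtracted and to 5846 with nuclei that carry Malat1, and the number that fell moved from 7810 to 5082 with thinned libraries. In shallow barcodes (fewer than 200 genes) Cxcl3 passed with RLE scaling, at 8.61, and the fits without a wounded library gave no value because no chemokine gene passed the filter. The replicate number as a block gave 6.37, 9.96 and 7.62 for Cxcl2, Cxcl3 and Cxcl5 and 9721 genes that rose; no label says that it pairs mice, and the replicate differences of the groups correlated at 0.043 across genes. It changed no call of a chemokine gene. Classes defined by at least 3 markers left no class with 20 barcodes in every library and were not tested. With at most 7 UMIs of a gene in a class, depth limits what can be said of cell types. Beyond the ratios given, the cause of each shift was not tested.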
